A study of Mus musculus with 8 samples.

Results

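Chemokines are small secreted or membrane-bound proteins that guide leukocytes. The 10 chemokine genes described here are Cxcl1, Cxcl2, Cxcl5, Cxcl9, Cxcl10, Cxcl12, Cxcl16, Ccl2, Ccl20 and Cx3cl1. They were chosen by name as ligands that bile duct epithelium can make, with earlier results of these data known. All 10 were found among the 47729 Ensembl gene identifiers of the deposited expression table. Of these, 9 passed the expression filter of at least 1 RPKM in at least 2 libraries, and Cxcl9 did not. RPKM counts reads per kilobase of gene, scaled to the size of the library.

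The ligands fall into classes by receptor. Cxcl1, Cxcl2 and Cxcl5 act on Cxcr2 and draw neutrophils. Cxcl9 and Cxcl10 are induced by interferon and act on Cxcr3 of T and NK cells. Ccl2 draws monocytes through Ccr2, Ccl20 draws Ccr6-bearing lymphocytes and dendritic cells, and Cxcl12 acts on Cxcr4. Cxcl16 and Cx3cl1 are made as transmembrane proteins that hold leukocytes and can be shed by proteases. NF-kB, the transcription factor downstream of TNF, interleukin-1 and Toll-like receptors, drives many of these genes, and injured or inflamed bile ducts are known to secrete several of the ligands.

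The cells were EpCAM+ cells, sorted by flow cytometry for a surface protein of ductal epithelium, taken from the livers of healthy C57/B6 mice, all adult males. The 8 libraries comprised 2 of freshly isolated cells, 2 of cells kept for 12 h in Matrigel with organoid medium, 1 of cells kept for 24 h, 1 titled 48h, and 2 of organoids grown for 6 days. For the library titled 48h the time point label reads 24 h, so its title is used as its name. No transgene or other treatment is labelled, and the freshly isolated cells are the only uncultured state, so a fall from them and the end of a response to isolation cannot be told apart. No label ties the replicates to different animals. The p-values therefore describe the spread among these libraries, and that spread may be technical. The libraries held between 13833143 and 28468920 effective reads, and the 24 h library had the fewest genes above 0, 13895 against 15632 to 21132 in the other 7. Epcam stood between 513 and 1175 RPKM in all 8 libraries. Krt19, a ductal keratin, stood between 162 and 1920 RPKM, with the lowest values in the 24 h library and 12 h replicate 2. Ptprc, the pan-leukocyte gene CD45, did not exceed 0.0143 RPKM in any library. Some other markers of non-ductal cells were present in fresh cells. There 16 leukocyte markers summed to 692 and 738 RPKM, of which Cd14 alone made up 661 and 716 RPKM. Only 5 and 4 of the 16 reached 1 RPKM in the fresh libraries. The 10 hepatocyte markers summed to 1020 and 1039 RPKM there. The organoid libraries stood apart from each other: all 8 chemokine genes above 0 there were higher in replicate 2.

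Promoter sequence was available from RefSeq (GRCm38.p6) for 7 of the 10 genes, and 4 are shown because these genes ended at different levels in culture. Each is the 220 bases before the RefSeq start, read 5′ to 3′ along the gene. For Cxcl1 and Cxcl2 this start lies a short way inside the GENCODE gene, whose coordinates are given with the gene cluster. Capitals mark matches to the NF-kB type, GGG and CC with 5 bases of any kind between them. In Cxcl10 they also mark the interferon response element type (GAAA, 2 bases of any kind, GAAA; the first capitals) and the AP-1 type, TGANTCA (the last capitals). The stretches are chr5:90891025-90891244 on the plus strand for Cxcl1, chr5:90903679-90903898 on the plus strand for Cxcl2, chr5:92348890-92349109 on the minus strand for Cxcl10, and chr1:83116546-83116765 on the plus strand for Ccl20.
Cxcl1: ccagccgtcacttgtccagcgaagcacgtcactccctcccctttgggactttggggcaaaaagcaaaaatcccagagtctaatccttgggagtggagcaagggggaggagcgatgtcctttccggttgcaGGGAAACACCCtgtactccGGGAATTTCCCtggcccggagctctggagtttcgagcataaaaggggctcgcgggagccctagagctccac
Cxcl2: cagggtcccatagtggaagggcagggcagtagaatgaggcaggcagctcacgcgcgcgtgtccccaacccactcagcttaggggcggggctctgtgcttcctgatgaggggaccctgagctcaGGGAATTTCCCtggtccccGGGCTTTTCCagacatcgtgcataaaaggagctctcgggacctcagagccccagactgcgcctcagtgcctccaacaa
Cxcl10: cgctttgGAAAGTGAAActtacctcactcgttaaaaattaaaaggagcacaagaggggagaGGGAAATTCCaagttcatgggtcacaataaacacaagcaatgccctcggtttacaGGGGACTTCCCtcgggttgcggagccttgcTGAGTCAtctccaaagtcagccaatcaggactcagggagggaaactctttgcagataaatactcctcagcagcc
Ccl20: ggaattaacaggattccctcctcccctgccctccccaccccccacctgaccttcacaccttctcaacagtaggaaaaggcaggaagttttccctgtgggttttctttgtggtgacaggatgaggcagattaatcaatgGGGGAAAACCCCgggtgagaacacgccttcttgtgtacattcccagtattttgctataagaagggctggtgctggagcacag
Both strands were searched, and overlapping matches were kept, over windows from 250 bases before to 50 bases after the start. The NF-kB type letters were present in 6 of the 7 windows, all but that of Cx3cl1, against 50.8% of all 32851 promoter windows in the table. The interferon type letters were present in 1 of the 7, that of Cxcl10, against 3.44% of all windows. The AP-1 type letters were present in 2 of the 7, those of Cxcl9 and Cxcl10, against 7.81%, and TTCNNNGAA (STAT type) in 0, against 8.3%. The longest run that the 250 bases upstream of Cxcl1 and Cxcl2 have in common is GGGAATTTCCCTGG, 14 bases long, which begins at position -71 in Cxcl1 and at -97 in Cxcl2. It was found by comparing the pair after their values were known, and 2 of the 32851 windows hold it, those of Cxcl1 and Cxcl2. Its first 10 bases occur in 29 windows, among them those of Cxcl3 and of Nfkbia, the NF-kB inhibitor gene. A match describes the letters only and is not evidence of binding.

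Ductal cells fresh from the liver carried very high chemokine RNA, most of it from Cxcl1, Cxcl2 and Cxcl5, and organoids carried less of it, most of it from Cxcl5. The summed RPKM of the 10 genes was 5723 and 5643 in fresh cells, 809 and 515 after 12 h, 697 after 24 h, 2853 under the 48h title, and 1737 and 3171 in the organoids. The fresh libraries were above all 6 others, and the 12 h and 24 h libraries were the lowest. In organoids Cxcl5 made up 91.3% and 69.8% of the sum, against 24.5% and 20.8% in fresh cells. Cxcl1 and Cxcl2 together made up 0.614% and 7.23% of the sum in organoids, against 60.8% and 60.9% in fresh cells. Neither share overlapped between the groups. An exact permutation test of 2 libraries against 2 cannot reach the threshold of 0.05, so these shares are a description. In bulk RNA, fewer cells of a kind and less RNA per cell cannot be told apart.

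**Figure D1:**
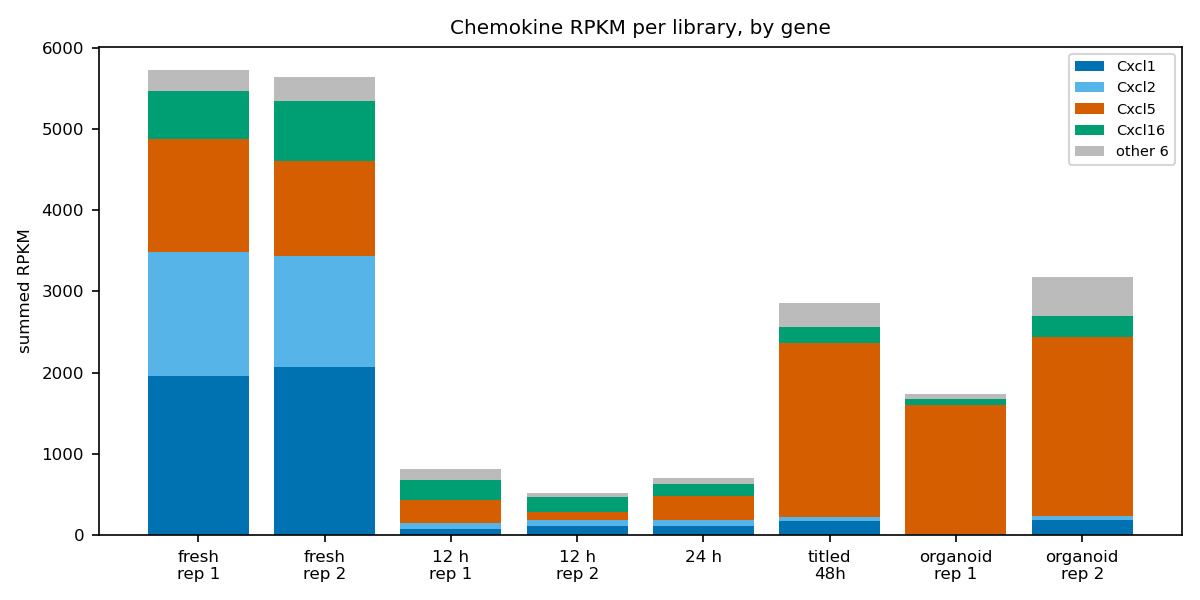
Stacked bars give the RPKM of Cxcl1, Cxcl2, Cxcl5, Cxcl16 and the sum of the other 6 chemokine genes in each of the 8 libraries (vertical axis, summed RPKM, from 0). The bars of the fresh libraries reach 5723 and 5643, and in the organoids most of each bar is Cxcl5.

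The 3 neutrophil chemokines parted in culture, with Cxcl2 low at 12 h and in organoids and Cxcl5 low at 12 h and back in organoids. Cxcl2 stood at 1523 and 1373 RPKM in fresh cells, 69.4 and 69.8 after 12 h, 80.7 after 24 h, 50.8 under the 48h title and 10.2 and 45.4 in organoids. Every cultured library was far below both fresh ones. At 12 h Cxcl2 averaged 69.6 ± 0.288 RPKM, against 1448 ± 106 in fresh cells (SD, n = 2 each), 20.8-fold lower. In organoids it averaged 27.8 ± 24.9 RPKM, 52-fold below fresh cells. The fitted log2 changes, on the log2(RPKM + 1) scale, were -4.36 at 12 h (SE 0.63, limma adjusted p = 0.026) and -5.98 in organoids (SE 0.63, limma adjusted p = 0.00891). Adjusted p-values are by Benjamini-Hochberg over all 12900 genes tested, with a threshold of 0.05. Organoids and 12 h cells did not overlap for Cxcl2 either, but their difference did not pass (log2 change -1.63, SE 0.63, limma adjusted p = 0.234).

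Cxcl5 stood at 1403 and 1172 RPKM in fresh cells, 290.4 and 98.0 after 12 h, 289 after 24 h, 2142 under the 48h title and 1586 and 2213 in organoids. The first-day libraries were low, and the library titled 48h and both organoid libraries were above both fresh ones. At 12 h Cxcl5 averaged 194 ± 136 RPKM, against 1287 ± 164 in fresh cells (SD, n = 2 each), 6.63-fold lower. Organoids averaged 1899.6 ± 444 RPKM, 9.78-fold above 12 h cells. The log2 change was -2.92 for 12 h against fresh cells (SE 0.56, limma adjusted p = 0.0367) and 3.46 for organoids against 12 h cells (SE 0.56, limma adjusted p = 0.0395). Organoids were 1.48-fold above fresh cells, a difference that did not pass (log2 change 0.55, SE 0.56, limma adjusted p = 0.56). Cxcl5 ranked 40 and 9 by RPKM among all genes in the organoid libraries, against 28 and 31 in the fresh ones. The fall at 12 h and the return were each lost after quantile normalization (limma adjusted p = 0.0966 and 0.0913). Both were also lost when only the groups compared were fitted. Over 20 alternatives the fall passed in 11 and the return in 10, with the direction kept in all.

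Cxcl1 had the highest level of the 10 genes in fresh cells, at 1957 and 2065 RPKM. It stood at 75.9 and 111 RPKM after 12 h, 109 after 24 h, 177 under the 48h title and 0.424 and 184 in organoids. All cultured libraries lay below the fresh ones, and the organoid libraries were 433-fold apart. The value of 0.424 RPKM corresponded to 11 reads and that of 184 to 6967 reads. At 12 h Cxcl1 averaged 93.3 ± 24.6 RPKM, against 2011 ± 76.4 in fresh cells (SD, n = 2 each), 21.6-fold lower, a gap as wide as that of Cxcl2. It did not pass at 12 h (log2 change -4.44, SE 1.95, limma adjusted p = 0.205) or in organoids (log2 change -6.95, SE 1.95, limma adjusted p = 0.0711). The fit pools the spread of all groups, and the standard error of Cxcl1 was 1.95 against 0.63 for Cxcl2. Without organoid replicate 1 the adjusted p of Cxcl1 was 0.0417 at 12 h and 0.0496 in organoids, and without organoid replicate 2 it was 0.0423 at 12 h and 0.014 in organoids.

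**Figure D2:**
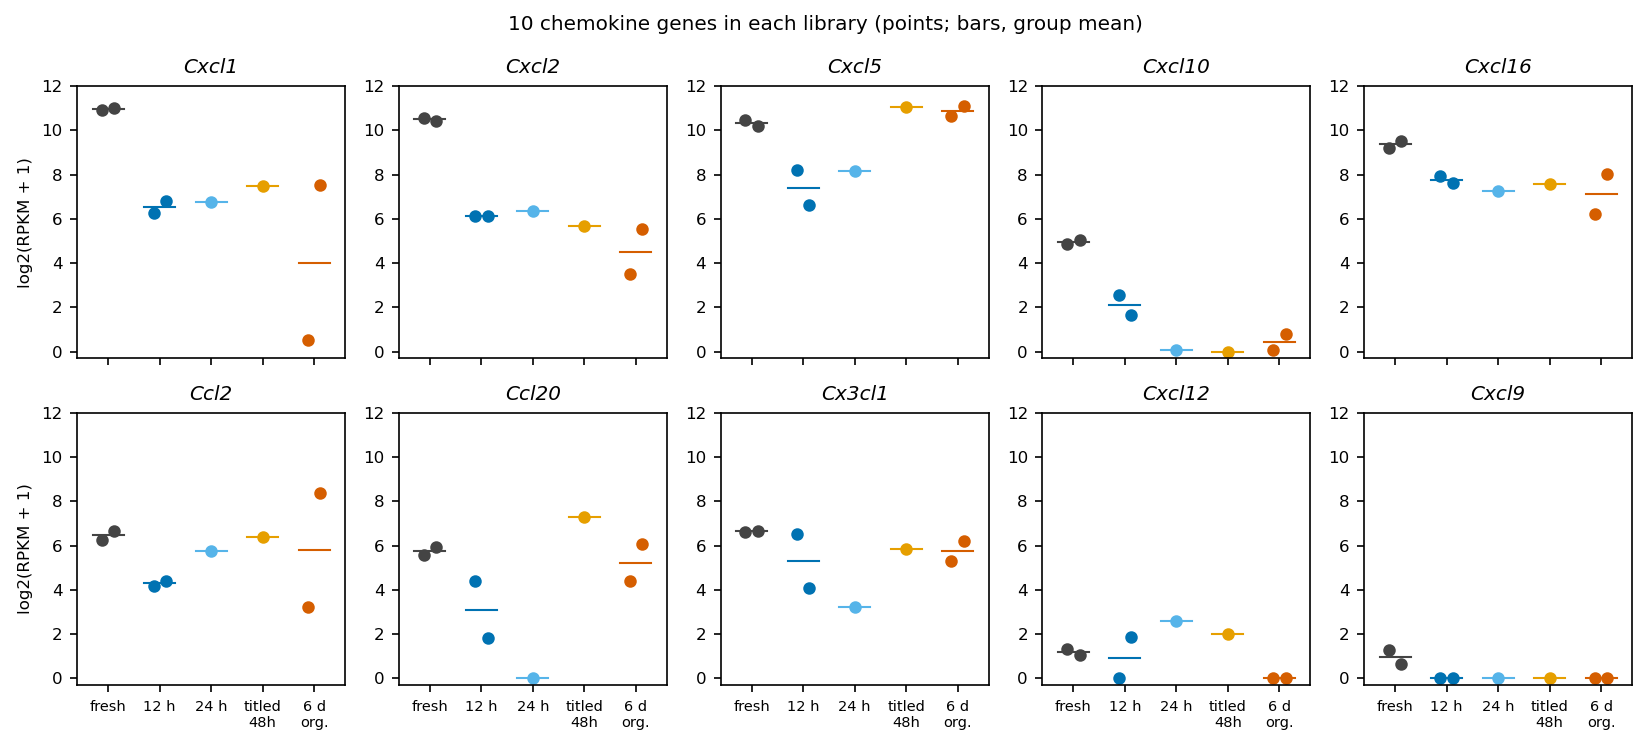
Each panel gives 1 chemokine gene, with log2(RPKM + 1) on the vertical axis and the groups along the horizontal axis in order of time, points for libraries and bars for group means (6 d org., organoids after 6 days). Cxcl1 and Cxcl2 drop in every cultured library, Cxcl5 is low at 12 h and 24 h and high again afterwards, and Cxcl10 lies near 0 from 24 h on.

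These ligand genes are neighbours. On GRCm38, Cxcl5 lies at chr5:90759360-90761624, Cxcl1 at chr5:90891241-90893115 and Cxcl2 at chr5:90903871-90905938, all protein-coding and on the plus strand. The interval from Cxcl5 to Cxcl2 holds 7 protein-coding genes of the table, in the order Cxcl5, Ppbp, Pf4, Cxcl3, Cxcl15, Cxcl1 and Cxcl2. Cxcl3, another Cxcr2 ligand, was called lower both at 12 h and in organoids, on values that are uncertain. It averaged 0.683 ± 0.541 RPKM at 12 h and 2.26 ± 1.07 RPKM in organoids, against 12.9 ± 1.94 RPKM in fresh cells (SD, n = 2 each). Its log2 change was -3.08 at 12 h (SE 0.50, limma adjusted p = 0.0297) and -2.13 in organoids (SE 0.50, limma adjusted p = 0.0451). Of the 36-base stretches in annotated Cxcl2 transcripts, 6.85% also occur in Cxcl3. Cxcl3 stood at 11.5 and 14.3 RPKM in fresh cells, where Cxcl2 stood at 1523 and 1373 RPKM. Reads of Cxcl2 could therefore make up much of the fresh Cxcl3 values and of their fall, which was not tested. Cxcl3 did not follow Cxcl2 in every library. It stood at 0.300 and 1.07 RPKM after 12 h, 8.25 after 24 h, where Cxcl2 stood at 80.7, and 2.25 under the 48h title. In organoids it stood at 3.02 and 1.50 RPKM, where Cxcl2 stood at 10.2 and 45.4. Cxcl1 shares 0 with any other annotated gene and Cxcl5 shares 0.703%. Pf4, the platelet chemokine, was at 18.7 and 10.8 RPKM in organoids and 0 and 2.49 RPKM at 12 h (log2 change 3.03, SE 0.71, limma adjusted p = 0.0841). The ratio of Cxcl5 to Cxcl2 was 0.922 and 0.854 in fresh cells, 4.18 and 1.4 at 12 h, and 155 and 48.7 in organoids.

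**Figure D3:**
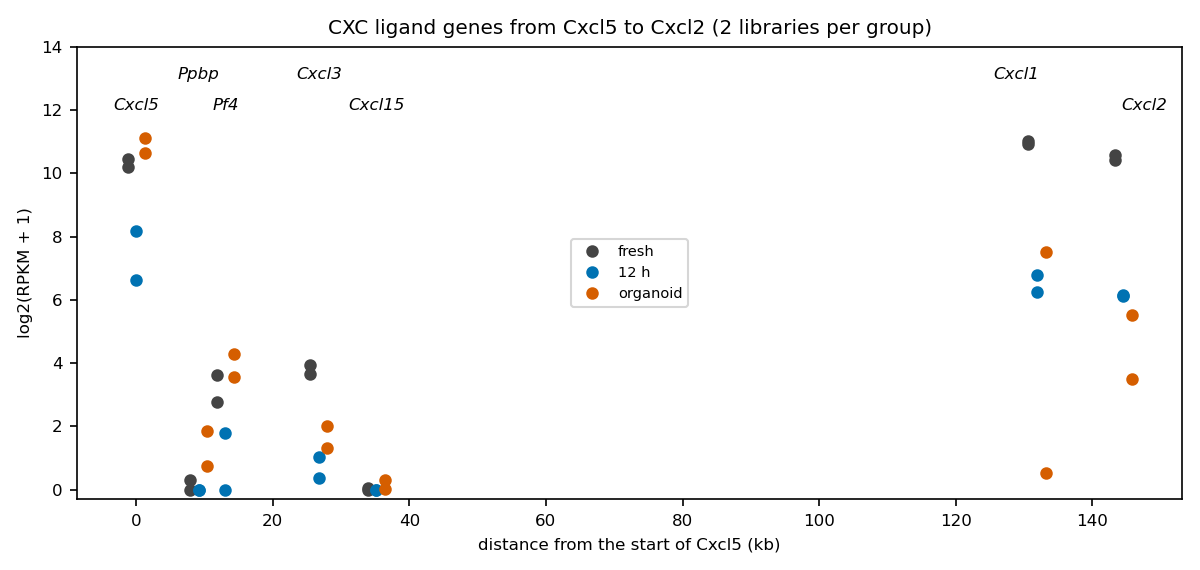
Points give log2(RPKM + 1) of the 7 protein-coding genes from Cxcl5 to Cxcl2 against the distance of their start from that of Cxcl5 in kb, with 2 libraries each of fresh cells, 12 h cells and organoids, set side by side around each start. Organoid points lie above the fresh ones at Cxcl5 and below them at Cxcl3, Cxcl1 and Cxcl2.

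The interferon-induced pair was low in all cultured libraries. Cxcl10 stood at 28.5 and 32.4 RPKM in fresh cells, 4.81 and 2.15 after 12 h, 0.0462 after 24 h, 0 under the 48h title and 0.0642 and 0.725 in organoids. No cultured library came near the fresh ones, and the later libraries were below those of 12 h. At 12 h it averaged 3.48 ± 1.89 RPKM, against 30.5 ± 2.77 in fresh cells (SD, n = 2 each), 8.75-fold lower (log2 change -2.88, SE 0.52, limma adjusted p = 0.0339). In organoids it averaged 0.394 ± 0.467 RPKM and was lower than in fresh cells again (log2 change -4.53, SE 0.52, limma adjusted p = 0.00942). The organoid values rest on 2 and 33 reads, and the value of 0 in the library titled 48h allows up to 0.0608 RPKM, the level of 3 reads. Floors of this kind cover counting error alone: amplified reads that carry no molecular identifier are not independent molecules. The call at 12 h ended at both smaller pseudocounts tried, 0.25 RPKM and 0.1 RPKM (limma adjusted p = 0.101 at 0.1 RPKM). It also ended in voom on recovered reads (adjusted p = 0.0519).

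Cxcl9, 18.6 kb from Cxcl10 on chromosome 5, was at 1.43 and 0.571 RPKM in fresh cells, on 66 and 49 reads, and listed at 0 in all 6 cultured libraries. Against a floor of 3 reads per library, Cxcl9 was at least 21.5-fold lower at 12 h and at least 16.6-fold lower in organoids. It was not tested with the expression filter, and without any filter it did not pass at 12 h (log2 change -0.97, SE 0.22, limma adjusted p = 0.124) or in organoids (log2 change -0.97, SE 0.22, limma adjusted p = 0.113).

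The transmembrane ligands were lower in culture without passing the test. Cxcl16 stood at 589 and 740.3 RPKM in fresh cells, 240.2 and 193 after 12 h, 152 after 24 h, 188 under the 48h title and 73.5 and 257 in organoids. All 6 cultured libraries lay below both fresh ones, by a smaller factor than for Cxcl2. It averaged 217 ± 33.2 RPKM at 12 h and 165 ± 130 RPKM in organoids, against 664 ± 107 RPKM in fresh cells (SD, n = 2 each). The log2 change was -1.61 at 12 h (SE 0.59, limma adjusted p = 0.141) and -2.25 in organoids (SE 0.59, limma adjusted p = 0.0594), and the organoid change passed after library median centring (0.0322) and with library weights (0.0347). Cx3cl1, the fractalkine gene, stood at 97.8 and 98.8 RPKM in fresh cells, 91.2 and 15.8 after 12 h, 8.41 after 24 h, 56.6 under the 48h title and 39.0 and 73.7 in organoids. Its 12 h libraries were 5.78-fold apart, and 1 of them was close to the fresh level, with all 6 cultured libraries below both fresh ones. The log2 change of Cx3cl1 was -1.34 at 12 h (SE 0.78, limma adjusted p = 0.325) and -0.86 in organoids (SE 0.78, limma adjusted p = 0.504). Adam10 and Adam17, proteases that can release both ligands and named here after their values were seen, stood at 42.2 and 32.0 and at 8.24 and 13.9 RPKM in organoids, against 34.6 and 16.8 and 4.95 and 5.62 RPKM in fresh cells.

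The CC ligands were at intermediate levels and varied between replicates. Ccl2 stood at 76.1 and 101 RPKM in fresh cells, 17.2 and 20.1 after 12 h, 52.3 after 24 h, 82.2 under the 48h title and 8.45 and 331 in organoids. The 12 h libraries lay below the fresh ones, while the organoid libraries, 39.2-fold apart, lay on either side of them. Neither 12 h (log2 change -2.18, SE 1.44, limma adjusted p = 0.386) nor organoids (log2 change -0.66, SE 1.44, limma adjusted p = 0.795) passed against fresh cells. Without organoid replicate 1 the organoid change was 1.90, without replicate 2 it was -3.23. At 12 h the change of Ccl2 passed when only the groups compared were fitted (limma adjusted p = 0.0448). Ccl7, which lies 8.26 kb from Ccl2 on chromosome 11 and encodes another monocyte chemokine, was at 0.451 and 19.0 RPKM in organoids, with the higher value in the same library as for Ccl2, against 24.3 and 17.2 RPKM in fresh cells.

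Ccl20 stood at 46.7 and 59.8 RPKM in fresh cells, 20.3 and 2.49 after 12 h, 0 after 24 h, 153 under the 48h title and 19.8 and 66.3 in organoids. It was low in the first-day libraries and highest in the library titled 48h, and the organoids overlapped fresh cells. The value of 0 at 24 h allows up to 0.11 RPKM. The log2 change was -2.64 at 12 h against fresh cells (SE 0.92, limma adjusted p = 0.126) and 2.12 in organoids against 12 h cells (SE 0.92, limma adjusted p = 0.275), so neither the fall nor the return passed.

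Cxcl12 was low in every library. It stood at 1.50 and 1.10 RPKM in fresh cells, 0.00584 and 2.62 after 12 h, 4.96 after 24 h, 3.07 under the 48h title and 0 in both organoid libraries. The 12 h values rest on 1 and 466 reads and lie on either side of the fresh ones. Against a floor of 3 reads per library, organoids were at least 58.3-fold below fresh cells, whose values rest on 187 and 257 reads, but the fitted change did not pass (log2 change -1.20, SE 0.62, limma adjusted p = 0.25). Cxcl12 is made mainly by stromal and endothelial cells. Of the markers searched for, 7 of 10 mesenchymal and 7 of 9 endothelial genes were below 1 RPKM in every library. The summed mesenchymal level was 0.198 and 0.254 RPKM in organoids and 14.5 and 4.26 RPKM in fresh cells, and that of the endothelial list was 0.313 and 0.501 RPKM in organoids and 4.85 and 5.05 RPKM in fresh cells. At 24 h, where Cxcl12 was highest, these sums were 0.292 and 0.0129 RPKM. Under the 48h title they were 2.84 and 2.17 RPKM. In 12 h replicate 2, with Cxcl12 at 2.62 RPKM, they were 0.125 and 1.72 RPKM. In 12 h replicate 1, with Cxcl12 at 0.00584 RPKM, they were 2.32 and 0.0284 RPKM. The source of Cxcl12 was not tested.

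**Figure D4:**
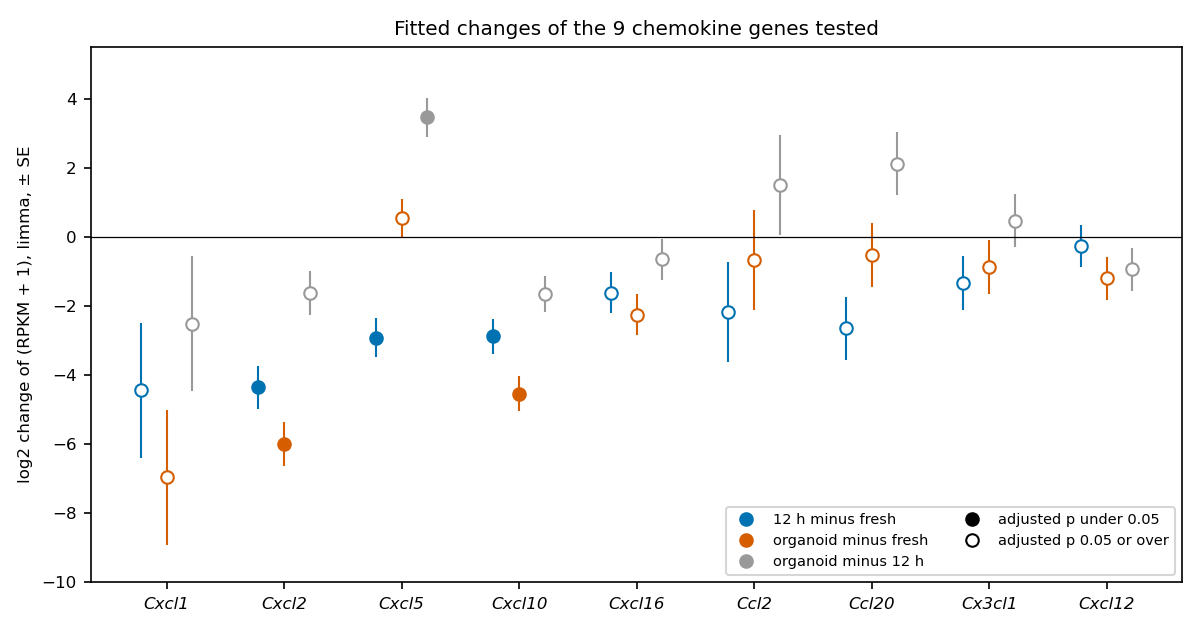
Points give the fitted log2 change of (RPKM + 1) with its SE for the 9 genes tested, in 3 comparisons, filled where the adjusted p is under 0.05 and open otherwise. Cxcl2 and Cxcl10 are filled and below 0 against fresh cells at both times, and Cxcl5 is filled below 0 at 12 h and above 0 from 12 h to organoids.

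Of the 9 genes tested, 3 were called lower at 12 h (Cxcl2, Cxcl5 and Cxcl10) and 0 higher, by limma, with 5 at an unadjusted p under 0.05. Of all 12900 genes 3.72% were called lower, 3.09% higher and 6.81% in either direction. All 8 genes other than Cxcl12 lay below fresh cells in both 12 h libraries, where 23.6% of all genes did so, and 0 lay above, where 38.6% of all genes did. The median log2 change of the 9 was -2.64, against 0.24 over all genes. In organoids 2 of 9 were called lower than in fresh cells (Cxcl2 and Cxcl10) and 0 higher, by limma, with 4 at an unadjusted p under 0.05. Of all genes 4.94% were called lower, 5.15% higher and 10.1% in either direction. There 6 of 9 lay wholly below fresh cells, against 26.6% of all genes, and 1, Cxcl5, wholly above, against 38.1%. The median log2 change there was -1.20, against 0.17 over all genes. From 12 h to organoids 1 of 9 was called higher (Cxcl5), where 1.38% of all genes were, and 0 were called lower by limma, where 0.62% of all genes were, with 3 of the 9 at an unadjusted p under 0.05 in either direction. There 3 of 9 lay wholly below 12 h cells, against 24.1% of all genes, and 1 wholly above, against 20.8%. The organoid and 12 h comparisons with fresh cells share the same 2 fresh libraries. By these calls Cxcl2 and Cxcl10 fell and stayed low, Cxcl5 fell and returned, and the course of the other 6 genes was not settled. Leaving out either fresh library ended every call in all 3 comparisons, over all 12900 genes as well, and leaving out either 12 h library ended the 3 chemokine calls at 12 h and the call of Cxcl5 in organoids against 12 h cells. Leaving out either organoid library also ended both calls of Cxcl5. The call of Cxcl10 in organoids against fresh cells ended without organoid replicate 1.

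The order of levels changed with culture. In fresh cells it ran Cxcl1, Cxcl2, Cxcl5, Cxcl16, Cx3cl1, Ccl2, Ccl20, Cxcl10, Cxcl12 and Cxcl9 by mean RPKM. There the libraries of Cxcl2 and Cxcl5 overlapped, as did those of Cx3cl1 and Ccl2 and those of Cxcl12 and Cxcl9. In organoids Cxcl5 stood alone above every other chemokine gene, and in the order Ccl2, Cxcl16, Cxcl1, Cx3cl1, Ccl20 and Cxcl2 that followed, the libraries of each gene overlapped those of the next.

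Other chemokine ligands were low. Of 28 further ligand genes 11 passed the filter, and 1, Cxcl3, was called, lower at 12 h and lower in organoids, with the uncertainty over reads shared with Cxcl2. Of all genes 3.72% and 4.94% were called lower. By limma, 4 of the 11 were at an unadjusted p under 0.05 at 12 h and 2 in organoids against fresh cells. Ccl5, a T cell and monocyte chemokine, stood at 4.14 and 2.01 RPKM in organoids and 16.8 and 3.02 RPKM at 12 h, against 9.36 and 5.93 RPKM in fresh cells. Cxcl17, a mucosal chemokine, stood at 9.21 and 8.51 RPKM in organoids and 9.22 and 0 RPKM at 12 h, against 8.01 and 6.28 RPKM in fresh cells. Cxcl14 reached 9.88 RPKM at 24 h and did not exceed 0.0963 RPKM in fresh cells. Of 23 chemokine receptor genes 2 passed the filter and 0 were called by limma, with 1 at an unadjusted p under 0.05 in each comparison with fresh cells, and 21 were below 1 RPKM in every library, Cxcr2, Cxcr3 and Cxcr4 among them. Ccrl2, an atypical receptor, averaged 1.35 ± 1.9 RPKM at 12 h and 1.57 ± 0.815 RPKM in organoids, against 13.7 ± 1.98 RPKM in fresh cells (SD, n = 2 each; limma adjusted p = 0.0523 at 12 h and 0.0617 in organoids). Ackr3, a scavenging receptor for Cxcl12, stood at 5.57 and 0.207 RPKM in organoids, against 1.88 and 0.755 RPKM in fresh cells.

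Part of the cytokine, receptor and NF-kB genes were called lower, and none higher. Of 29 tested cytokine, receptor and NF-kB genes, 6 were called lower at 12 h and 8 in organoids, with 0 higher in either by limma (13 and 16 at an unadjusted p under 0.05), against the 3.72% and 4.94% of all genes called lower. The median log2 change was -1.23 at 12 h and -1.68 in organoids. At 12 h 18 of the 29 lay wholly below fresh cells and 4 wholly above (Il1r1, Il17rc, Ltbr and Ikbkb), against 23.6% and 38.6% of all genes. In organoids 22 lay below and 2 above (Tlr3 and Ltbr), against 26.6% and 38.1% of all genes. These 5 genes are named for their position, after their values were seen, and their differences did not pass. Zfp36, whose protein destabilises cytokine and chemokine messages, averaged 9.05 ± 1.45 RPKM in organoids, against 306 ± 47.3 in fresh cells (SD, n = 2 each; log2 change -4.93, SE 0.34, limma adjusted p = 0.00573). Lif, an interleukin-6 family cytokine, averaged 5.46 ± 5.44 RPKM in organoids, against 109.6 ± 34.4 in fresh cells (log2 change -4.38, SE 0.69, limma adjusted p = 0.0177). Tlr2, a receptor for bacterial lipopeptides, averaged 1.44 ± 0.708 RPKM in organoids, against 43.3 ± 0.429 in fresh cells (log2 change -4.21, SE 0.42, limma adjusted p = 0.00708). Nfkbiz, an NF-kB cofactor needed for part of its targets, averaged 19.4 ± 3.71 RPKM in organoids, against 181 ± 36.4 in fresh cells (log2 change -3.15, SE 0.34, limma adjusted p = 0.00904). These 4 were also called lower at 12 h. Tnf, named after its values were seen, stood at 2.21 and 12.0 RPKM in organoids, against 31.1 and 38.7 RPKM in fresh cells.

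**Figure D5:**
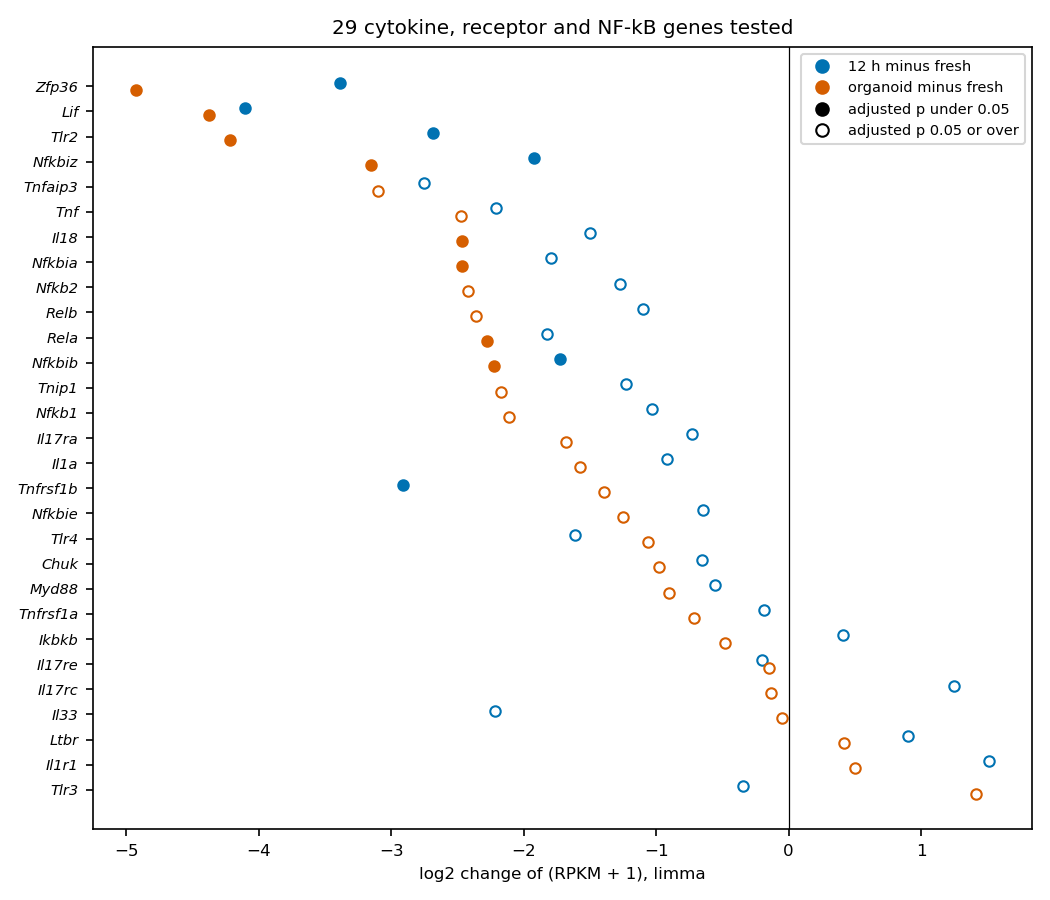
Points give the fitted log2 change of (RPKM + 1) for 29 cytokine, receptor and NF-kB genes, at 12 h and in organoids against fresh cells, filled where the adjusted p is under 0.05. All filled points lie below 0, led by Zfp36, Lif and Tlr2 in organoids.

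Of 15 interferon pathway genes tested, 0 were called at 12 h by limma, with 0 at an unadjusted p under 0.05. In organoids 10 lay wholly below fresh cells, against 26.6% of all genes, and 7 were at an unadjusted p under 0.05. There 1 was called lower, where 4.94% of all genes were. It was Irf7, an interferon-induced transcription factor, at 2.05 ± 0.00806 RPKM against 12.4 ± 2.26 in fresh cells (SD, n = 2 each; log2 change -2.13, SE 0.47, limma adjusted p = 0.0384). Of 5 tested protease and inhibitor genes that act on chemokines or their shedding, Mmp7, the matrilysin gene, averaged 671 ± 55.4 RPKM in organoids, against 93.9 ± 71.6 in fresh cells (log2 change 3.06, SE 0.58, limma adjusted p = 0.0265). Timp3, an inhibitor of ADAM proteases, was called lower at 12 h and higher again in organoids than at 12 h, at 26.5 ± 4.88 RPKM in organoids and 1.46 ± 2.02 RPKM at 12 h (log2 change 3.77, SE 0.65, limma adjusted p = 0.0449). A list of 12 genes that respond to tissue dissociation held immediate early genes and the heat shock genes Hspa1a and Hspa1b. Of these 12, 6 were called lower at 12 h and 11 in organoids, where 3.72% and 4.94% of all genes were. Hspa1a and Hspa1b were among those called at both times. Egr1 averaged 13.1 ± 10.2 RPKM in organoids, against 425 ± 93.6 in fresh cells (SD, n = 2 each).

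Some markers of other cells were also lower in culture. The summed level of 16 leukocyte markers was 103 and 223 RPKM in organoids and 103 and 111 RPKM at 12 h, against 692 and 738 RPKM in fresh cells, and Cd14, a lipopolysaccharide co-receptor, made up 661 and 716 RPKM of the fresh values. Of the 16, 4 were tested, and 2 were called lower at 12 h (Cd14 and Csf1r) and 1 in organoids (Cd14). The other two, Cd68 and Lyz2, overlapped fresh cells at both times. Cd3e and Nkg7 were at 0 in all libraries, and Csf1r, a macrophage receptor, was at 0.0977 and 0.443 RPKM at 12 h, against 5.21 and 10.9 RPKM in fresh cells. Of 10 ductal markers, 0 were called at 12 h by limma (3 at an unadjusted p under 0.05). Eng, the 1 endothelial marker tested, was called lower at 12 h, and 0 of 2 mesenchymal markers were called by limma, with 2 at an unadjusted p under 0.05 in each comparison with fresh cells. Of 3 mesothelial markers tested, 2 were called lower at 12 h, and 1 higher and 2 lower in organoids. The higher one was Msln, at 488 and 475 RPKM in organoids, against 29.3 and 21.4 RPKM in fresh cells. Of 8 hepatocyte markers tested, 7 were called lower at 12 h and 7 in organoids. For all these lists, 3.72% of all genes were called lower and 3.09% higher at 12 h, and 4.94% lower and 5.15% higher in organoids. The part of other cells in the chemokine changes was not tested.

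By the likeness measure, the root mean square difference of log2(RPKM + 1) over the 8 libraries after centring each gene, 7119 protein-coding genes averaging 5 RPKM or more were compared with each chemokine gene. Nearest to Cxcl2 were Noct (0.66) and Zfp36 (0.68), where the median over all genes was 2.49. Nearest to Cxcl10 were Sgms2 (0.39) and Tox2 (0.44), and nearest to Cxcl5 were Cryl1 (0.56) and Scd1 (0.59), against medians of 2.18 and 1.76. Nearest to Cxcl16 were Tnip1 (0.23) and Ubald1 (0.23), the smallest differences found, against a median of 1.27. Vcam1 (1.16) and Alb (1.30) came nearest to Cxcl1, Lgals1 (0.78) and Gpx3 (0.87) to Ccl2, and Ptgr1 (0.88) and Spryd4 (0.98) to Ccl20. The medians for these were 3.15, 1.67 and 2.39. Pcyt1a (0.42) and Gja1 (0.43) came nearest to Cx3cl1, and Creb3l1 (0.43) and Taok2 (0.44) to Cxcl12, against medians of 1.43 and 1.16. Among the chemokine genes themselves the nearest pair was Cxcl2 and Cxcl10 (0.97), and the gene nearest to Cxcl5 was Cx3cl1 (1.26).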

How the data were processed

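Full-length cDNA from column-purified RNA of sorted cells was made by Smart-seq2 and tagmented with Nextera XT, per the labels' protocols. The authors deposited 1 RPKM value per gene and library. The submitters' processing notes name GRCm38. No source used here names the aligner, counter, annotation release or strandedness. Symbols came from GENCODE M21 (GRCm38), for 47310 of 47729 identifiers.

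RPKM steps returned whole reads within 0.01 for 88.2% to 91.2% of small values, which gave effective reads per library, and whole reads in all libraries for 12884 of the 12900 genes that reached 1 RPKM in 2 or more libraries. For Cx3cl1 the length was the one that made its reads whole.

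Values were tested as log2(RPKM + 1) in limma 3.58.1 (R 4.3.3), with 1 coefficient for each of 5 groups, eBayes with trend, 3 residual and 3.65 prior degrees of freedom, two-sided, adjusted by Benjamini-Hochberg. The 24 h library and the library titled 48h entered the fit and are given as values. The chemokine genes and gene lists were chosen with earlier results of these data known. Besides the 10 genes, list members called in any comparison were named, at most 4 a list by size, with ligands and receptors reaching 5 RPKM. Alternatives were other pseudocounts, filters, scalings, variance models, library sets and a replicate block. The calls among ductal markers in organoids are not reported here.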

Additional observations from a re-analysis of the deposited data

Results flagged for a closer look

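In libraries outside the replicated comparisons, 4 chemokine values exceeded both fresh libraries. Each comes from 1 library and was not tested. Cxcl5 stood at 2142 RPKM in the library titled 48h, against at most 1403 RPKM in fresh cells. Ccl20 stood at 153 RPKM there, against at most 59.8 RPKM in fresh cells. Cxcl12 stood at 4.96 RPKM after 24 h and at 3.07 RPKM under the 48h title, against at most 1.50 RPKM in fresh cells. The other values lay within or below the fresh range, 9 of them after 24 h and 7 under the 48h title.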

How the results depend on the processing

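Over 20 alternatives, 3 of them chosen after seeing the data (voom, and leaving out the 24 h library or the library titled 48h), Cxcl2, Cxcl5 and Cxcl10 kept the direction of every called change. Cxcl2 stayed past the threshold in 15 of 20 at 12 h (adjusted p up to 0.213) and 18 of 20 in organoids (up to 0.114), Cxcl10 in 12 and 17 (up to 0.251 and 0.107), and Cxcl5 in 11 for the fall and 10 for the return. Median centring moved the median log2 change of all genes from 0.24 to -0.09 at 12 h, and the split of calls from 398 higher and 480 lower to 322 higher and 806 lower.

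The number of genes called at 12 h, 878, became 423 without a filter, 1601 with library weights and 545 without trend. In organoids against fresh cells, 1301 became 740 without a filter and 690 with voom. In organoids against 12 h, 258 became 418 at a pseudocount of 0.1 RPKM, 151 at a mean of at least 5 RPKM, 28 with library weights and 601 with voom. By limma it became 0 without a filter (3379 at an unadjusted p under 0.05) and 0 with only the groups compared (1686). Chemokine calls at 12 h, 3, became 5 with only the groups compared and 0 without a filter (4 at an unadjusted p under 0.05). Cxcl5 was not among the 5. In organoids against fresh cells, 2 became 4 at a mean of at least 5 RPKM, 4 with library weights and 4 with the replicate block. Against 12 h, 1 became 0 by limma without a filter (2 at an unadjusted p under 0.05), with quantile normalization (4), with only the groups compared (2) and with library weights (3). The cause was not tested. Leaving out 1 library at a time gave 0 to 1082 genes at 12 h, 0 to 1418 in organoids against fresh cells and 0 to 321 against 12 h, and 0 to 5, 0 to 5 and 0 to 2 chemokine calls. A lone library left in a group was assumed to vary like the others.

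Direction turned for 7 uncalled changes. Over single libraries left out, the log2 change in organoids against fresh cells ranged between -3.23 and 1.90 for Ccl2 and between -1.37 and 0.32 for Ccl20. Against 12 h cells it ranged between -1.06 and 4.08 for Ccl2, -6.02 and 0.996 for Cxcl1, -1.54 and 0.25 for Cxcl16 and -0.76 and 1.70 for Cx3cl1. At 12 h it ranged between -1.19 and 0.66 for Cxcl12. Replicate numbers shared across groups come with no stated pairing, and the deviations of same-numbered libraries correlated at 0.282, 0.267 and 0.0238 across 7319 genes. With the replicate block 713, 1419 and 208 genes were called at 12 h, in organoids and in organoids against 12 h.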

Other observations

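The organoid libraries differed more from each other than the fresh ones did for most chemokine genes. Over the 9 genes tested the median absolute log2 difference between replicates was 1.69 in organoids and 0.89 at 12 h, against 0.25 in fresh cells. Over all 12900 genes it was 0.64 in organoids and 0.53 at 12 h, against 0.26 in fresh cells. Among 1302 genes averaging 50 RPKM or more, 21 differed by at least 10-fold in log2(RPKM + 1) terms between the organoid libraries, 11 between the 12 h libraries and 9 between the fresh ones. Cxcl1 and Ccl2 were 433-fold and 39.2-fold apart in organoids, and replicate 2 was the higher for all 8 chemokine genes above 0 in organoids. The median over all 12900 genes shifted the same way. For organoids against fresh cells the median log2 change was 0.34 without organoid replicate 1 and -0.05 without organoid replicate 2. The share of all genes higher in replicate 2 was not counted. The summed level of 33 cytokine, receptor and NF-kB genes was 403 RPKM in organoid replicate 1 and 842 RPKM in organoid replicate 2.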
